A study of Mus musculus with 16 samples.

Results

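Mouse hematopoietic stem cells (HSCs) with an intact Selp gene were compared after culture in vehicle and directly after sorting. The comparison used 6 of the 16 RNA-seq libraries of the series: 3 of SelpWT cells that were sequenced fresh and 3 of SelpWT cells that were cultured with vehicle. All genes with enough counts for a test were members, which left 14124 of the 25239 genes in the count table. The cells came from bone marrow of mice aged 4 to 6 months. Neither the strain nor the sorting gate was given in the sources used here. The culture medium held 10% fetal calf serum, Flt-3 ligand at 1 ng/mL, interleukin-11 at 20 ng/mL and stem cell factor (SCF) at 300 ng/mL. How long the vehicle cultures lasted was not given in the sources used here. The treated arm of the series received its ligand for 24 hours. Fresh libraries therefore differ from vehicle libraries in medium, cytokines, serum and time together, and these cannot be told apart.

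HSCs are rare marrow cells that sustain blood formation and spend most of their life in a resting state outside the cell cycle. In that state they keep protein synthesis low, rely on niche signals such as SCF, angiopoietin-1 and TGF-beta, and express transcription factors such as Meis1, Gata2, Hlf and Mecom. Placing them in medium with cytokines removes the niche and is known to bring them into the cell cycle, while surface markers such as Sca-1, the product of Ly6a, can change without a change in stem cell function.

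The 6 libraries held 12590539 to 16687200 counts. Levels are given as CPM, the gene's count scaled to a common library total, 3 values always stand in the order of replicates 1, 2 and 3, and means are ± SD over the 3 libraries of a group. The fresh libraries had counts for 12684 to 13162 genes, and the vehicle libraries for 11822, 11101 and 12942. Of the tested genes, 11.2% of the values in fresh libraries and 16.9% of those in vehicle libraries were 0. The 3 fresh libraries lay close together on the first 2 principal components of these 6 libraries (40.1% and 22.5% of the variance). The vehicle libraries were spread out along both, with replicate 2 farthest from the fresh cells on the first. On the second, vehicle replicates 1 and 2 lay at −94.8 and 67.0, on opposite sides of the fresh libraries. The labels do not say that replicates came from separate mice, so each p-value reflects only how far these libraries differ from one another, and that spread may be technical. In bulk RNA a lower level can come from fewer cells of a type or from less RNA per cell, and these cannot be told apart.

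Selp, the gene that the series deletes elsewhere and that encodes P-selectin, was present in all 6 libraries, at 16.8, 67.3 and 119 CPM fresh and 59.6, 26.5 and 139 CPM after vehicle. The groups overlapped, and the log2 fold change was 0.27 (SE 1.24, edgeR adjusted p = 0.993). Without fresh replicate 1 it was −0.19 and without vehicle replicate 3 it was −0.59. Selplg, which encodes its ligand PSGL-1, was at 238, 232 and 318 CPM fresh and 394, 369 and 293 CPM after vehicle (log2 0.52, adjusted p = 0.49).

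The labelled cell type was checked against marker genes. In the fresh libraries Kit was at 629, 768 and 746 CPM, Hlf at 348, 357 and 290.2, Mecom at 78.6, 119 and 118, Procr at 73.7, 99.4 and 75.0 and Slamf1 at 51.4, 41.3 and 36.1. All of these stem cell genes were present in each fresh library, as were Fgd5 (11.3, 55.8 and 5.94 CPM) and Hoxb5 (4.66, 17.2 and 18.5). Of genes of later progenitors, Cd48 was at 3.50, 7.39 and 0.143 CPM, Flt3 at 41.6, 60.4 and 44.9, and Il7r had 0 counts in all 6 libraries. Cd34, also among these progenitor genes, stood above Mecom, Procr and Slamf1 in each fresh library, at levels given with the surface genes below. Some defining genes of mature cells were also at 0 counts in all 6 libraries, among them Ms4a1 of B cells, Cd3d, Cd3e and Cd3g of T cells, Ly6g of neutrophils, Adgre1 of macrophages, and Mcpt8 and Ms4a2 of basophils and mast cells. The hemoglobin genes Hba-a1, Hba-a2, Hbb-bs and Hbb-bt were at 0 as well, but they are near-identical copies whose reads may have been lost, and Rpl26, a ribosomal protein gene that every cell uses, was also listed at 0. Other genes of these lists were expressed in fresh cells, where summed levels were 3972 ± 364 CPM for the erythroid, 2513 ± 189 for the mast cell, 1204 ± 65.0 for the neutrophil and 980.4 ± 68.1 for the macrophage list. Summed over its 23 genes, the HSC surface list was at 5265 ± 348 CPM fresh and 5369 ± 125 CPM after vehicle, so this sum did not separate the groups.

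**Figure D1:**
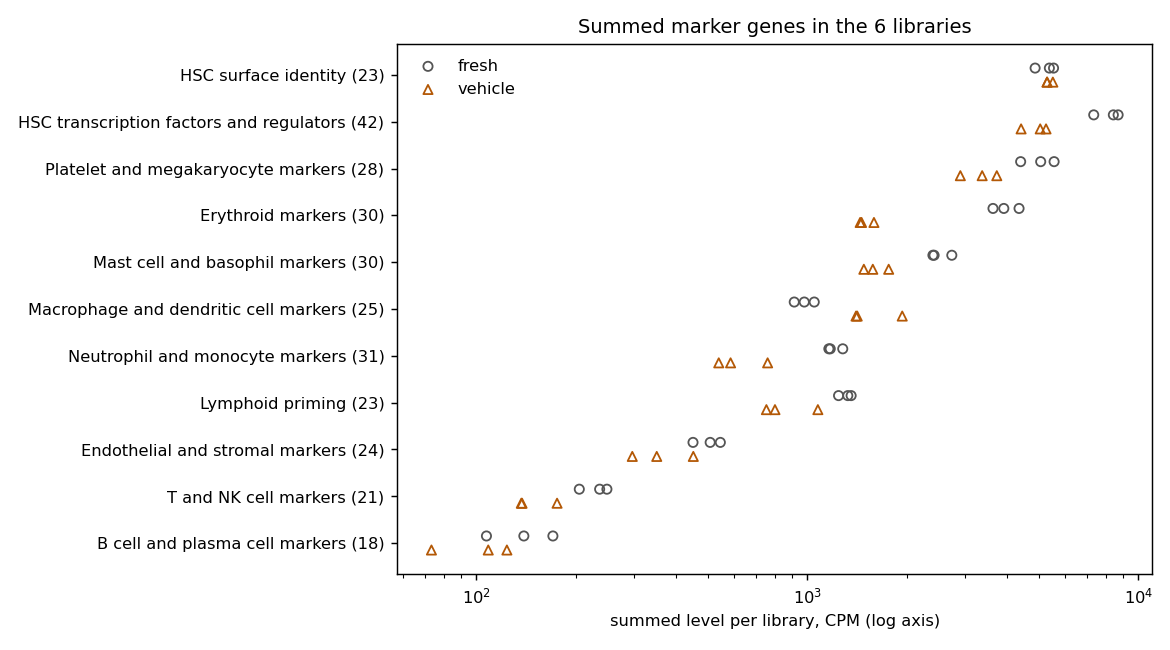
Summed levels of marker lists in each of the 6 libraries, in CPM on a log axis; circles are fresh and triangles are vehicle libraries, and the number of summed genes stands in brackets. Sums of HSC transcription factors and of erythroid, platelet and mast cell genes lay lower in each vehicle library than in each fresh library. Those of neutrophil, T cell and lymphoid priming genes did as well. The macrophage and dendritic cell sum, which holds Cd63, lay higher, and the surface list overlapped.

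Culture changed 231 genes by edgeR's quasi-likelihood test with Benjamini-Hochberg adjustment, 174 higher and 57 lower after vehicle. This was 1.64% of the genes tested, 1.23% higher and 0.404% lower. Of all 14124 genes tested, 1692 had an unadjusted p under 0.05 in edgeR, 797 passed in DESeq2 and 706 in limma. Counts by these 3 measures in the lists below are to be read against those totals. In each of the 231 genes the 3 vehicle libraries lay all above or all below the 3 fresh ones, an arrangement found in 23.2% of all tested genes. Over all genes tested the median log2 fold change was −0.07, with 6432 above 0 and 7468 below. Among the changed genes the median size was 1.47 on the log2 scale, and 49 rose and 19 fell by at least 4-fold. The number of calls moved with the libraries used: 440 genes passed when 1 sparse library of the PSGL-1 treated WT arm was left out of the fit that shares its spread over all 16 libraries, and 85 to 153 passed when 1 of the 6 libraries was left out. All 231 genes were among the 440, and 66 of them passed in all 6 fits without 1 library. A gene named below as changed is among those 66 unless its dependence on a library is given.

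**Figure D2:**
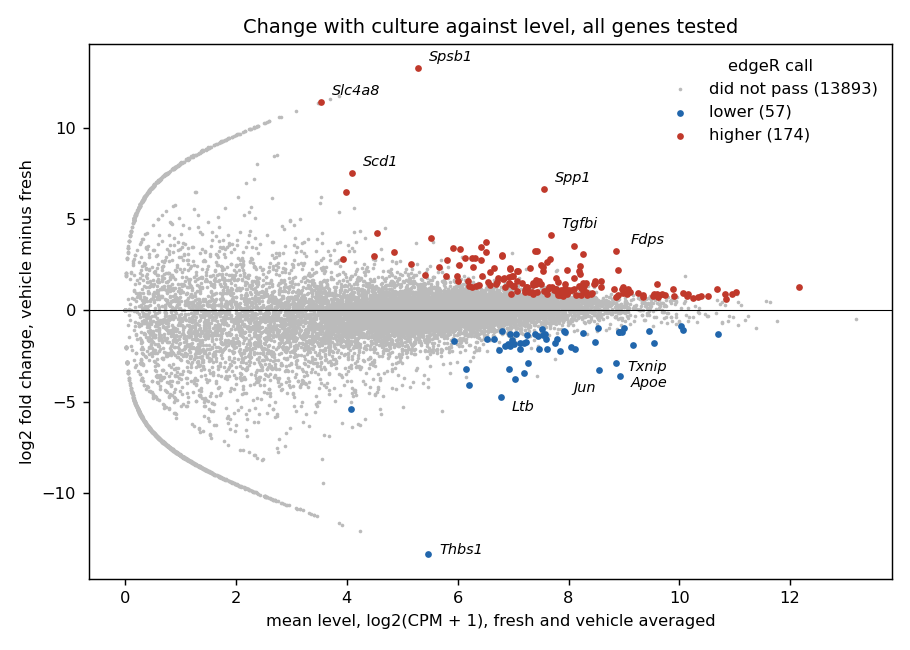
Log2 fold change of vehicle minus fresh against the mean level of each of the 14124 genes tested; red points rose, blue points fell and grey points did not pass. Genes that passed lay mostly at higher levels, and the curved bands of grey points at low levels are genes with 0 counts in all libraries of 1 group, whose fitted change is no measure of size.

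Several genes of the largest increases passed in all 6 fits without 1 library; Cdkn1a and the sterol enzymes among them are described with their lists. Tgfbi (chromosome 13, 56609586 to 56639359), which encodes a matrix protein secreted in response to TGF-beta, was at 18.7, 33.8 and 18.0 CPM fresh and 479.9, 341 and 331 CPM after vehicle, and all vehicle libraries stood far above the fresh ones (log2 4.13, SE 0.26, adjusted p = 1.06e-06). Pmepa1, whose product dampens SMAD signalling downstream of TGF-beta receptors, went from 10.7, 2.14 and 4.22 CPM to 88.6, 104 and 59.3 CPM (log2 3.96, SE 0.62, adjusted p = 0.00396). Vldlr, a receptor for lipoproteins rich in triglyceride, was at 54.2, 45.4 and 40.0 CPM fresh against 632, 534 and 336 CPM cultured, without overlap (log2 3.52, SE 0.44, adjusted p = 0.000582). Gem, a small GTPase gene, rose by 3.45 on the log2 scale (SE 0.52, adjusted p = 0.00288), from 6.70, 15.9 and 9.09 CPM to 142, 85.3 and 94.8 CPM. Chsy1, which builds chondroitin sulfate chains, was near 18.7 ± 4.45 CPM in fresh cells and at 149, 193 and 140.3 CPM in cultured ones (log2 3.20, SE 0.27, adjusted p = 1.05e-05), a narrow spread in both groups.

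For other large increases the call, though not the direction, depended on which libraries were used. Spsb1, an adaptor of a ubiquitin ligase, had 0 counts in each fresh library and 136, 80.7 and 12.6 CPM after vehicle, at least 341-fold higher against a floor of 3 counts per library; its call was lost without fresh replicates 2 or 3 (highest adjusted p 0.0605). Slc4a8, a sodium bicarbonate transporter, also had 0 counts in each fresh library and 20.0, 35.3 and 8.17 CPM after vehicle, at least 94.5-fold higher, and its call was lost without fresh replicates 1, 2 or 3 (highest adjusted p 0.089). In both genes the groups were separate and the vehicle values uneven, with replicate 3 lowest. Serpina3h was uneven in the other order. It is a serpin of a multigene family and was at 0.291, 0.238 and 0.501 CPM fresh and 1.14, 11.2 and 75.0 CPM after vehicle, and its call was lost without fresh replicates 1, 2 or 3 or vehicle replicate 3 (highest adjusted p 0.146). Recql4, a helicase gene that overlaps Lrrc14 and Mfsd3, stood at 0.802, 5.40 and 1.07 CPM and then 61.0, 34.7 and 30.7 CPM, and lost its call without fresh replicates 1 or 3 or vehicle replicates 1, 2 or 3 (highest adjusted p 0.162). Across the 6 fits its log2 fold change stayed between 3.81 and 5.56. Irf2bpl rose from 4.96, 23.3 and 16.3 to 149, 200.3 and 112 CPM (log2 3.47, 3.06 to 3.94 across the 6 fits), a call lost without fresh replicates 1, 2 or 3 or vehicle replicates 1 or 2 (highest adjusted p 0.102).

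Among the genes that fell, Thbs1 (chromosome 2, 118111876 to 118127133), which encodes the platelet and matrix protein thrombospondin 1, was at 119, 83.6 and 57.5 CPM fresh and had 0 counts in all 3 vehicle libraries, at least 443-fold lower against the floor (adjusted p = 0.00789). Coq8a, an atypical kinase gene needed for coenzyme Q synthesis that overlaps Cdc42bpa, fell from 192, 233 and 305 CPM to 6.89, 23.8 and 19.3 CPM (log2 −3.77, SE 0.66, adjusted p = 0.00875). Gimap6, a GTPase gene of the immunity-associated family, went from 161, 235 and 261 CPM to 23.2, 15.0 and 28.6 CPM (log2 −3.19, SE 0.36, adjusted p = 0.000215). Its relative Gimap1 fell from 287, 431 and 419 CPM to 75.0, 80.4 and 74.2 CPM (log2 −2.21, SE 0.24, adjusted p = 0.000182). In both genes every vehicle library lay below every fresh one. Plppr3, a phospholipid phosphatase relative that overlaps Ptbp1, dropped from 253, 229 and 336 CPM to 38.8, 24.8 and 39.0 CPM (log2 −2.90, adjusted p = 0.00568). Matk, a kinase that inhibits SRC family kinases, was even within both groups, at 289.5, 306 and 272 CPM fresh and 43.4, 71.9 and 70.1 CPM cultured (log2 −2.12, adjusted p = 0.00227).

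Some of the steepest decreases kept their size in the fits without 1 library while their adjusted p crossed the threshold. Ltb, the lymphotoxin beta gene, was at 229, 215 and 189 CPM fresh and 5.39, 7.06 and 9.49 CPM after vehicle (log2 −4.75, −5.02 to −4.56 across the 6 fits), and its call was lost whichever of the 6 libraries was left out (highest adjusted p 0.132). Nek8, a kinase of cilia, stood at 38.3, 39.7 and 14.7 CPM and then 0.479, 0.315 and 1.24 CPM (log2 −5.39), and Tle2, a corepressor of the Groucho family that overlaps Tle6, at 98.8, 159 and 156 CPM and then 9.05, 4.60 and 9.27 CPM (log2 −4.07, −4.27 to −3.80 across the 6 fits). Their calls were lost likewise in all 6 such fits, with highest adjusted p of 0.152 and 0.144. In each of these 3 genes the vehicle libraries lay below the fresh ones in every pair. Tcp11l2 fell by 3.19 on the log2 scale, a call lost without fresh replicates 2 or 3 or vehicle replicates 1 or 3 (highest adjusted p 0.0737). Itih5, which encodes a protein that binds hyaluronan in the matrix, fell by 2.13, a call lost without fresh replicate 2 or vehicle replicates 1 or 3 (highest adjusted p 0.0785).

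**Figure D3:**
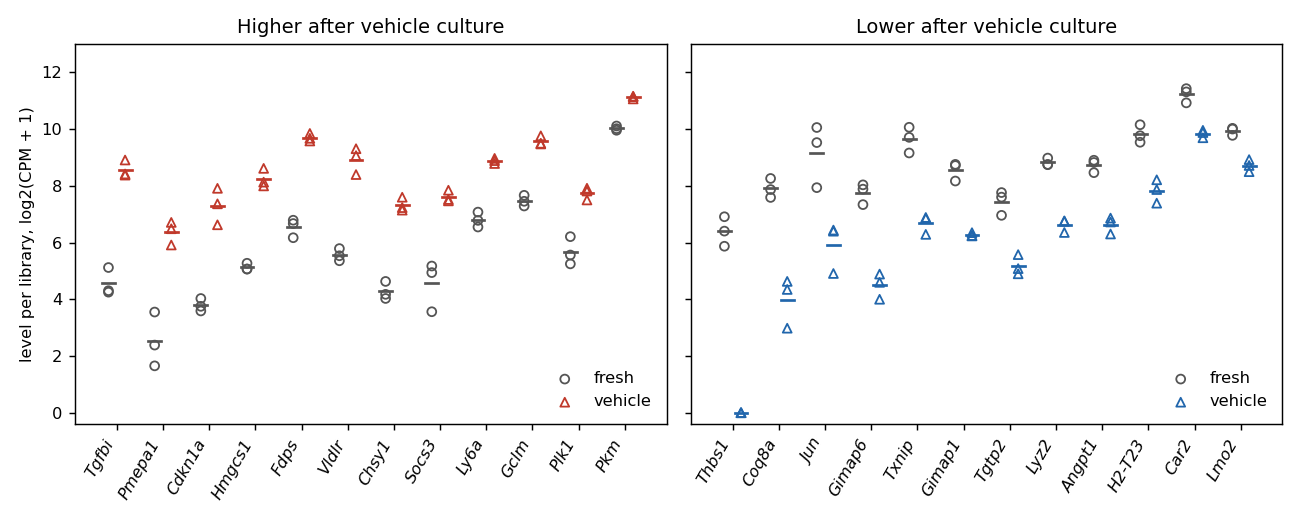
Level of 12 genes that rose and 12 that fell in each of the 6 libraries, as log2(CPM + 1); open circles are fresh libraries, open triangles vehicle libraries and bars the means of these log values. No fresh value overlaps a vehicle value, and Thbs1 lies at 0 in all 3 vehicle libraries.

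Genes of cholesterol synthesis formed the list with the largest share of changed members. Of 29 tested, 14 rose, none fell and 28 had a log2 fold change above 0, with a median of 2.16 against −0.07 over all genes. The changed genes ranged from the first to the last enzymes of the pathway. Hmgcs1 (chromosome 13, 119690351 to 119708260), which makes HMG-CoA, was at 32.5, 32.5 and 37.6 CPM fresh and 279, 391 and 254 CPM after vehicle (log2 3.27, SE 0.33, adjusted p = 0.000108). Fdps, which makes farnesyl diphosphate, was at 764, 919.7 and 816 CPM after vehicle against 101, 71.0 and 109 CPM fresh (log2 3.25, SE 0.25, adjusted p = 8.72e-06). Downstream, the squalene synthase gene Fdft1, which overlaps Ctsb, rose from 26.5, 54.0 and 20.6 to 295, 391 and 219 CPM. The epoxidase gene Sqle rose from 82.9, 104 and 104 to 416, 564 and 505 CPM and the demethylase gene Cyp51 from 54.5, 63.2 and 41.1 to 354, 397 and 299 CPM. In all of these the groups were separate, and fresh replicate 2 was the highest fresh library for Fdft1.

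Of the 15 members that did not pass, 8 still had all vehicle libraries on 1 side of all fresh ones, an arrangement found in 23.2% of all tested genes. In the whole list all vehicle libraries lay above all fresh ones in 21 members and below them in 1, which did not pass. Scap, which escorts the sterol-sensing transcription factors SREBP, was at 191 ± 14.6 and 202 ± 10.3 CPM, and Lbr at 236 ± 10.3 and 284 ± 92.3 CPM. Genes of sterol efflux and the receptor LXR had a median of −0.47 over 14 tested, with 1 higher and 1 lower. The member that fell was Apoe, a lipid carrier, from 721, 1014 and 962 to 8.33, 148 and 52.1 CPM (log2 −3.60), and its call was lost without fresh replicates 1, 2 or 3 or vehicle replicates 1 or 3 (highest adjusted p 0.15). Of 27 genes of fatty acid synthesis and storage 4 rose and none fell, with a median of 0.36. Fasn, fatty acid synthase, rose from 245, 143 and 208 to 570.4, 658 and 483 CPM (log2 1.61, adjusted p = 0.00195). The desaturase genes Fads2 (log2 1.52, lost without fresh replicates 1 or 2 with adjusted p up to 0.0684), Fads1 (log2 1.19, lost without fresh replicates 1 or 3 or vehicle replicates 1 or 3 with adjusted p up to 0.0877) and Scd1 joined it. Scd1 went from 0.146, 0.159 and 0.215 CPM, which was at or under 3 counts in each fresh library, to 50.5, 19.2 and 26.2 CPM, and lost its call without fresh replicates 1, 2 or 3 (highest adjusted p 0.0984). Among 22 genes of fatty acid oxidation 1 fell, Hadh (log2 −1.27, lost without fresh replicates 1, 2 or 3 or vehicle replicates 1 or 2 with adjusted p up to 0.115).

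The promoter of Hmgcs1 is shown because its list had the largest share of changed members and because it holds both motifs searched for sterol genes. It is the 250 bases before the start at chr13:119690101-119690350 (GRCm38.p6, plus strand, from RefSeq, 5′ to 3′). Capitals mark 3 CCAAT boxes, which here read ATTGG on the printed strand, and 1 sterol regulatory element, TCACNCCAC.
Hmgcs1: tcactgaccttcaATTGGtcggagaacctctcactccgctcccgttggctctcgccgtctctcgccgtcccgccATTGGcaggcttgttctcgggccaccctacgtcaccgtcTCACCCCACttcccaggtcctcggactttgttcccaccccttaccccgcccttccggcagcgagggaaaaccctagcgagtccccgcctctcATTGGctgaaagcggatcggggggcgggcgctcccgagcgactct
Motifs were searched on both strands. The sterol element lay 137 bases before the start, and Hmgcs1 was the only gene with this spelling among 20 list members with a promoter in the table, against 1.22% of all 27025 promoters. A CCAAT box was found in 18 of those 20 (90%), in 53.6% of promoters of genes that rose, in 33.3% of those that fell and in 37.5% of all promoters. Its share among tested genes with a promoter was 40.2%. High shares were not particular to sterol genes, with 72.7% for mitosis and 75.9% for endoplasmic reticulum chaperone genes. Of lists with medians below 0, MHC class II had 88.9%, MHC class I 73.7% and interferon genes 34.1%. A match is a description of letters and no evidence of binding.

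Cell cycle genes lay higher after culture by small amounts, and a minority passed. The DNA replication and S phase list had log2 fold changes above 0 in all 53 of its tested members, with a median of 0.92, and 8 passed. In 37 of the 53 all vehicle libraries lay above all fresh ones, against 1183 of all 14124 genes tested. Fen1, the flap endonuclease of lagging strand synthesis, which overlaps Tmem258, went from 169, 189 and 193 CPM to 516, 563 and 495 CPM (log2 1.61, SE 0.23, adjusted p = 0.00195). The others named by rule were Mcm2 of the replicative helicase (log2 1.20), the ribonucleotide reductase subunits Rrm1 (1.27) and Rrm2 (1.81), and the chromatin assembly factor Chaf1a (1.49). Their calls were each lost without at least 1 library: Mcm2 without fresh replicates 1 or 2 or vehicle replicate 2 (highest adjusted p 0.112), Rrm1 without fresh replicates 1, 2 or 3 or vehicle replicates 1 or 3 (highest adjusted p 0.112), Rrm2 without fresh replicates 1, 2 or 3 or vehicle replicates 1 or 3 (highest adjusted p 0.13) and Chaf1a without fresh replicates 1 or 2 or vehicle replicates 1 or 2 (highest adjusted p 0.0984). Dnmt1, the maintenance DNA methyltransferase, had separate groups at 459.7, 264 and 419 and 756, 834 and 563 CPM without passing (adjusted p = 0.106).

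Of 52 mitosis genes 10 rose, none fell and 51 were above 0, with a median of 0.98. Plk1, a kinase that drives mitotic entry and spindle assembly, was at 46.2, 72.9 and 37.0 CPM fresh and 180.1, 240.1 and 224 CPM after vehicle (log2 2.15, SE 0.32, adjusted p = 0.00227). Mki67, which encodes the proliferation antigen Ki-67, went from 255, 151 and 178 to 544, 559 and 456 CPM (log2 1.51, adjusted p = 0.00357). Cdk1 (chromosome 10, 69335146 to 69352912), the kinase of mitosis, rose from 88.6, 133 and 85.0 to 301, 213 and 266 CPM (log2 1.45, SE 0.28, adjusted p = 0.0153), a call lost without fresh replicates 1 or 3 or vehicle replicate 1 (highest adjusted p 0.0872). Aurkb and Smc4 rose by 1.01 and 0.78 on the log2 scale, with calls lost without fresh replicates 2 or 3 or vehicle replicate 3 (highest adjusted p 0.12) and without fresh replicates 1, 2 or 3 or vehicle replicates 1 or 3 (highest adjusted p 0.136), respectively. The fresh cells were not silent for this list: Cdc20 was at 222, 194 and 173 CPM fresh and 211, 224 and 331 CPM cultured, and the groups overlapped.

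The promoter of Cdk1 is shown as an example of a mitotic promoter with the cell cycle genes homology region (CHR) beside CCAAT boxes. It covers 224 of the 250 bases before the RefSeq start, cut where an annotated exon begins, at chr10:69352939-69353162 (GRCm38.p6, minus strand, from RefSeq, 5′ to 3′), and capitals mark 3 CCAAT boxes as ATTGG and the CHR, searched as TTTGAA or TTCGAA.
Cdk1: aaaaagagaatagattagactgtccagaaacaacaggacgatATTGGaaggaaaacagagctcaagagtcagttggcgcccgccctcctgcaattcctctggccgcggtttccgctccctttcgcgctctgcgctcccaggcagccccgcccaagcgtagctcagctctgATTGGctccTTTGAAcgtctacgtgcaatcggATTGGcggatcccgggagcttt
The CHR was found in 17 of 44 mitosis promoters (38.6%), against 15% of the tested genes with a promoter and 19.6% of all promoters. In Cdk1 the CHR lay 71 bases before the start, and its call and values are given above.

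Among 25 cyclins, kinases and inhibitors of the G1 phase 3 rose and 1 fell, with a median of 0.73. Cdkn1a, which encodes the CDK inhibitor p21, was at 15.3, 12.5 and 11 CPM in fresh cells and reached 164, 239.7 and 97.7 CPM after vehicle (log2 3.78, SE 0.43, adjusted p = 0.000215). It was the only changed gene among 33 tested p53 targets, whose median was 0.50. The p53 gene itself, Trp53, was at 327, 342 and 363 and 499, 458 and 475 CPM, separate groups that did not pass (adjusted p = 0.0708). Cyclin D3, Ccnd3, which overlaps Bysl, rose from 368, 332 and 385 to 700.2, 699 and 762 CPM (log2 1.09, adjusted p = 0.000762), and Cyclin D2, Ccnd2, fell from 577, 695 and 804 to 287, 370.1 and 323 CPM (log2 −0.99). The Ccnd2 call was lost whichever of the 6 libraries was left out (highest adjusted p 0.197). Cdk6, their partner kinase, rose from 260.1, 212 and 397 to 662, 620.4 and 568 CPM (log2 1.18), a call lost without fresh replicates 1 or 2 or vehicle replicates 1, 2 or 3 (highest adjusted p 0.109).

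Of 29 glycolysis genes 4 rose and none fell (median 0.41), and all 4 act in the lower part of the pathway. Pkm, pyruvate kinase, was tight in both groups, at 993, 1103 and 1033 CPM fresh and 2138, 2285 and 2259.7 CPM after vehicle (log2 1.19, SE 0.13, adjusted p = 0.000126). Gapdh rose from 1565, 1266 and 1449 to 2634, 2566 and 3009 CPM (log2 1.04, adjusted p = 0.00168) and Ldha, lactate dehydrogenase, from 1266, 1405 and 1263 to 1962, 2355 and 2608 CPM (log2 0.92, adjusted p = 0.00559). Eno1 rose by 0.80 on the log2 scale, a call lost without fresh replicates 1 or 2 or vehicle replicates 2 or 3 (highest adjusted p 0.0971). These genes have many processed copies in the genome, and how reads with several matches were counted was not given in the sources used here. None of 25 hypoxia genes passed in edgeR (5 at an unadjusted p under 0.05, 4 in DESeq2, 2 in limma). In that list Bhlhe40, a repressor that is also a clock gene, was at 24.2, 28.9 and 25.8 CPM fresh and 222, 314 and 132 CPM after vehicle (adjusted p = 0.0617).

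In the pentose phosphate pathway and nucleotide synthesis 4 of 36 genes rose and none fell (median 0.52). They were G6pdx, the entry enzyme (log2 1.25, lost without fresh replicate 2 or vehicle replicate 1 with adjusted p up to 0.105), Tkt, transketolase (0.77, lost without fresh replicates 2 or 3 or vehicle replicates 1 or 3 with adjusted p up to 0.138), and the neighbouring kinase genes Nme1 (0.89) and Nme2 (1.36), which resemble each other closely in sequence. The Nme1 call was lost whichever of the 6 libraries was left out (highest adjusted p 0.218) and that of Nme2 without fresh replicates 2 or 3 or vehicle replicates 1 or 3 (highest adjusted p 0.148). None of 55 subunits of oxidative phosphorylation passed in edgeR (14 at an unadjusted p under 0.05, 3 in DESeq2, 8 in limma), and 48 lay above 0 with a median of 0.31. Slc25a5, the mitochondrial exchanger of ADP and ATP, which was chosen after its values were seen, rose from 634, 516 and 659 to 1219, 1175 and 1469 CPM (log2 1.19, adjusted p = 0.000582). In the citric acid cycle list 1 of 29 rose, Idh3a (log2 0.99, lost without fresh replicates 1 or 2 or vehicle replicates 1 or 3 with adjusted p up to 0.161).

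Genes that charge tRNAs lay slightly higher after culture. Of 23 aminoacyl tRNA synthetases tested, 20 were above 0 and 4 rose, with a median of 0.52. Gars, which charges glycine tRNA, went from 187, 133 and 138 to 371, 294 and 340.2 CPM (log2 1.23, adjusted p = 0.00629), a call lost without fresh replicate 2 (highest adjusted p 0.0531). Aars, Nars and Wars rose by 1.11, 0.82 and 1.07 on the log2 scale, with calls lost without fresh replicates 2 or 3 or vehicle replicates 1 or 3 (highest adjusted p 0.135), whichever of the 6 libraries was left out (highest adjusted p 0.151) and whichever of the 6 libraries was left out (highest adjusted p 0.206), respectively. Among 36 targets of the amino acid response factor ATF4, 2 rose and 1 fell (median 0.52). Besides Vldlr these were Slc7a5, an importer of large neutral amino acids, which rose from 71.9, 98.6 and 95.3 to 238, 175 and 298 CPM (lost without fresh replicates 1, 2 or 3 or vehicle replicates 1 or 3 with adjusted p up to 0.0863), and Ppp1r15a, a phosphatase subunit that restores translation, which fell from 207, 196 and 153 to 51.8, 33.7 and 48.7 CPM (lost whichever of the 6 libraries was left out with adjusted p up to 0.13). The C/EBP-ATF motif TGATGNAA was present in 9 of 31 promoters of this list (29%), against 3.91% of all promoters.

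Of 39 genes of endoplasmic reticulum chaperones and the unfolded protein response 2 rose (median 0.37): Dnajb11, from 96.3, 94.0 and 84.5 to 202, 172 and 244 CPM (lost without fresh replicates 2 or 3 with adjusted p up to 0.0548), and Sdf2l1, from 75.9, 35.2 and 56.8 to 156, 191 and 243 CPM (lost without fresh replicates 2 or 3 or vehicle replicates 2 or 3 with adjusted p up to 0.134). Hspa5, the central chaperone of that compartment, was at 633, 613 and 634 and 802, 619 and 1224 CPM and overlapped. Of 32 heat shock chaperones 2 rose, Stip1 (log2 1.00, lost without fresh replicates 1 or 2 or vehicle replicate 3 with adjusted p up to 0.089) and Tcp1 (0.83, lost whichever of the 6 libraries was left out with adjusted p up to 0.173). In the proteasome 30 of 31 subunits were above 0, with a median of 0.51, and 2 ATPase subunits rose, Psmc4 (log2 1.11, lost without fresh replicate 2 with adjusted p up to 0.0543) and Psmc2 (1.13, lost whichever of the 6 libraries was left out with adjusted p up to 0.159). Genes of ribosome biogenesis and MYC targets had a median of 0.54, with 3 of 53 higher: Ldha and Nme1, described above, and Eif5a, a translation factor (log2 0.65, lost without fresh replicates 1, 2 or 3 or vehicle replicates 1 or 3 with adjusted p up to 0.213). Myc itself was at 508, 623 and 801 and 912, 633 and 591 CPM, which overlapped. None of 76 cytosolic ribosomal protein genes passed in edgeR (6 at an unadjusted p under 0.05, 2 in DESeq2, 0 in limma) and their median was −0.16. Their summed level was 53326 ± 8600.4 CPM fresh and 41738 ± 6093 CPM after vehicle.

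Of 24 iron and heme genes 2 rose and 1 fell, and the list median was 0.45 (0.32 with 1 member at 0 counts in a whole group set to its bound). Gclm (chromosome 3, 122245487 to 122267215), the modifier subunit of the enzyme that limits glutathione synthesis, was at 202, 174 and 155 CPM fresh and 723, 867 and 711 CPM after vehicle (log2 2.21, SE 0.18, adjusted p = 1.05e-05). Its list, the targets of the oxidative stress factor NRF2, had 2 higher and none lower of 46, with a median of −0.08. Tfrc, which encodes the transferrin receptor for iron uptake, rose from 38.7, 20.2 and 10.7 to 138, 189 and 111 CPM (log2 2.74, SE 0.45, adjusted p = 0.00568). The storage subunit Ftl1, which has many processed copies, went from 2953, 2822 and 2659.9 to 5066, 7293 and 6653 CPM (log2 1.27, lost without fresh replicates 1, 2 or 3 or vehicle replicates 2 or 3 with adjusted p up to 0.0984). Ncoa4, the receptor that delivers ferritin to lysosomes, fell from 212, 200.1 and 257 to 55.9, 81.4 and 106 CPM (log2 −1.35, lost without fresh replicate 3 or vehicle replicate 1 with adjusted p up to 0.0714). Fth1, the other ferritin subunit, was separate at 1641, 1504 and 1414 and 2388, 3098 and 2624 CPM with an adjusted p of 0.0543.

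The Gclm promoter is shown because the gene rose while most of its list did not. It covers 180 bases that end just before the start of the gene given above, at chr3:122245307-122245486 (GRCm38.p6, plus strand, from RefSeq, 5′ to 3′), and capitals mark a match to the antioxidant response element TGACNNNGC on the other strand, 64 bases before that start.
Gclm: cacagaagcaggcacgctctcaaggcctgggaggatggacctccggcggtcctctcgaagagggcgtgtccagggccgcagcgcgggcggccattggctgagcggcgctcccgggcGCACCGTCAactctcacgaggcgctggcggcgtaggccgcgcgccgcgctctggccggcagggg
This element was found in 8 of 39 promoters of the NRF2 list (20.5%), against 14.1% of tested genes and 11.5% of all promoters.

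Among cytokine signalling genes, 2 feedback inhibitors rose after culture. Socs3, a feedback inhibitor of cytokine receptors that signal through STAT3, rose from 35.1, 10.8 and 29.7 CPM to 176, 229 and 182 CPM (log2 3.05, SE 0.40, adjusted p = 0.00102). The adaptor Sh2b3, which restrains cytokine receptors, rose from 39.1, 66.6 and 57.7 to 253, 161 and 91.3 CPM, a call lost without fresh replicates 1, 2 or 3 or vehicle replicate 1 (highest adjusted p 0.0799). With Ccnd2, these were the 3 changed genes of 36 in the JAK-STAT list (median 0.01). Il4ra, the interleukin-4 receptor alpha chain, was the only cytokine receptor of 40 that rose, from 116, 109 and 56.9 to 372, 424 and 425 CPM (log2 2.21, adjusted p = 0.000957). Kit, the receptor for the SCF in the medium, fell from 629, 768 and 746 to 375, 285 and 207 CPM (log2 −1.21, adjusted p = 0.0465), a call lost whichever of the 6 libraries was left out (highest adjusted p 0.165). Csf2rb, the shared chain of the receptors for GM-CSF, interleukin-3 and interleukin-5, was at 17.3, 58.0 and 77.9 CPM fresh and 226, 203 and 205 CPM after vehicle, separate groups that did not pass (adjusted p = 0.471).

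Of 33 genes of the TGF-beta and BMP pathways 2 rose, Tgfbi and Pmepa1, with a list median of 0.62. The ligand gene Tgfb1 was at 129, 122 and 219 and 379.8, 191 and 287 CPM, which overlapped, and did not pass (adjusted p = 0.117). In the Wnt and Notch list Hes1, a repressor induced by Notch, rose from 6.27, 6.51 and 4.22 to 69.9, 44.9 and 34.2 CPM (log2 3.22, lost whichever of the 6 libraries was left out with adjusted p up to 0.165). Dtx3, a relative of the Notch regulator Deltex, fell from 221, 203 and 273 to 88.5, 57.4 and 47.4 CPM (log2 −1.76, lost without fresh replicate 3 or vehicle replicates 2 or 3 with adjusted p up to 0.0826). Bcl3, a nuclear partner of NF-kB, rose from 40.3, 66.2 and 25.8 to 258, 150.2 and 189 CPM (log2 2.28, SE 0.40, adjusted p = 0.00819). The inhibitor gene Nfkbia fell from 209, 177 and 185 to 64.5, 69.2 and 85.0 CPM (log2 −1.28, lost without fresh replicate 1 or vehicle replicates 1 or 2 with adjusted p up to 0.0633), and no other of the 33 NF-kB genes passed in edgeR (6 of the list passed in DESeq2 and 3 in limma).

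Immediate early genes, which respond to handling as well as to signals, were uneven in fresh cells. The list of 33 had 1 gene higher, 3 lower and a median of −0.02. Jun was at 244, 735 and 1063 CPM fresh and 83.5, 85.8 and 29.0 CPM after vehicle, a fall in all pairs despite a fresh range of more than 4-fold (log2 −3.27, SE 0.58, adjusted p = 0.00947). Ier2 fell from 233, 321 and 447 to 149.8, 173 and 113 CPM, a call lost without fresh replicates 2 or 3 or vehicle replicates 1, 2 or 3 (highest adjusted p 0.209). Egr1 was at 9.84, 84.5 and 187 CPM and 137, 62.5 and 31.5 CPM, and Junb at 74.0, 134 and 228 and 277, 166 and 203 CPM, and both overlapped. In each of these 4 genes fresh replicate 1 was the lowest fresh library.

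Genes of the matrix and secreted factors changed in both directions, 7 higher and 1 lower of 46, while the list median was −0.31 (−0.26 with 6 members at 0 counts in a whole group set to their bound, but 0.23 without fresh replicate 2 and 0.16 without vehicle replicate 1). Col4a2, a chain of basement membrane collagen that overlaps Col4a1 head to head, rose from 27.8, 113 and 62.1 to 506, 889 and 243 CPM (log2 3.11, SE 0.52, adjusted p = 0.006). S100a4, a calcium-binding protein gene, was very even after culture at 124, 124 and 117 CPM, against 16.4, 24.9 and 11.4 CPM fresh (log2 2.89, adjusted p = 0.000377). Vim, the intermediate filament vimentin, rose from 194, 193 and 218 to 417, 423 and 395 CPM (log2 1.13, adjusted p = 0.00359). Spp1, osteopontin, reached 202, 782 and 125 CPM from 1.60, 2.07 and 7.80 CPM with the widest spread of the group, and its call was lost without fresh replicates 1 or 2 (highest adjusted p 0.0958). The member that fell was Angpt1 (chromosome 15, 42424667 to 42676977), the Tie2 ligand, at 352, 452 and 477 CPM fresh and 115, 77.9 and 105 CPM after vehicle (log2 −2.0, SE 0.29, adjusted p = 0.00207). Tek, which encodes Tie2, was at 41.5, 70.5 and 57.6 and 21.6, 32.6 and 11.5 CPM, separate groups that did not pass (adjusted p = 0.735).

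Of 42 adhesion and homing genes 2 rose and none fell, with a median of −0.01. Itgb3, the beta-3 integrin subunit, rose from 36.1, 46.8 and 83.1 to 228, 295 and 253 CPM (log2 2.32, lost without fresh replicates 1 or 2 with adjusted p up to 0.0785), whereas its platelet partner Itga2b was at 619, 639 and 802 and 497, 677 and 949.7 CPM and overlapped. The tetraspanin gene Cd63 rose from 408, 437 and 451 to 949, 1442 and 977 CPM (log2 1.47, lost without fresh replicate 2 with adjusted p up to 0.0543). Ctsd, a lysosomal protease, was at 569, 473 and 439 and 1359.9, 2730.3 and 998 CPM with an adjusted p of 0.0504, and none of the 42 autophagy and lysosome genes passed in edgeR (6 at an unadjusted p under 0.05, 2 in DESeq2, 1 in limma).

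Stem cell transcription factors lay lower after culture. Of 42 tested, 38 had log2 fold changes below 0 and 4 fell, with none higher and a median of −0.64. Lmo2, a bridging factor of the stem cell transcription complex, went from 1024, 877 and 1042 to 361, 419.7 and 485 CPM (log2 −1.12, SE 0.18, adjusted p = 0.00468). Meis1 fell from 411, 468 and 434 to 195, 169 and 157 CPM (log2 −1.23), Nfe2 from 669, 716 and 661 to 216, 278 and 343 CPM (−1.19) and Pdzk1ip1 from 319.5, 324 and 232 to 66.2, 121 and 91.4 CPM (−1.55). Their calls were lost whichever of the 6 libraries was left out (highest adjusted p 0.112), without fresh replicate 2 or vehicle replicates 1 or 2 (highest adjusted p 0.0704) and whichever of the 6 libraries was left out (highest adjusted p 0.151), respectively. Gata2 at 467, 626 and 562 and 252, 397 and 263 CPM and Mecom at 78.6, 119 and 118 and 37.1, 32.5 and 25.8 CPM had separate groups without passing (adjusted p = 0.114 and 0.324). Of 22 Hox and cofactor genes only Meis1 fell, and the list median was −0.56; Hoxa9 was at 75.3, 114 and 93.5 and 46.7, 50.5 and 39.8 CPM, separate groups with an adjusted p of 0.394.

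Surface genes went both ways. Ly6a (chromosome 15, 74994877 to 74998031), the Sca-1 gene, was at 92.5, 109 and 134 CPM fresh and 473, 440.3 and 499 CPM after vehicle (log2 2.17, SE 0.24, adjusted p = 0.000157). Cd34 rose from 408, 299 and 334 to 808, 696 and 693 CPM (log2 1.17, adjusted p = 0.00384). Procr, at 73.7, 99.4 and 75.0 and 13.8, 69.0 and 23.9 CPM, and Slamf1, at 51.4, 41.3 and 36.1 and 0, 0 and 5.33 CPM, lay lower in all vehicle libraries but did not pass (adjusted p = 0.437 and 0.324). Slamf1, which encodes the marker CD150, had 0 counts in vehicle replicates 1 and 2.

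Genes tied to quiescence and FOXO factors had 4 of 36 lower, none higher and a median of −0.62. Txnip (chromosome 3, 96557957 to 96561857), which restrains glucose uptake and thioredoxin and overlaps Gm15441, dropped from 570.1, 836 and 1069 to 117, 77.2 and 114 CPM (log2 −2.90, SE 0.42, adjusted p = 0.00207). Pnrc1 fell from 329.6, 324 and 377 to 190.2, 122 and 117 CPM (lost without fresh replicate 3 with adjusted p up to 0.0522), Tsc22d3, a glucocorticoid target, from 249, 197 and 236 to 38.7, 91.5 and 55.9 CPM (lost without fresh replicates 1, 2 or 3 or vehicle replicates 1 or 3 with adjusted p up to 0.151), and Pik3ip1, an inhibitor of PI3 kinase, from 158, 169 and 258 to 40.3, 70.7 and 33.1 CPM (lost without fresh replicates 1, 2 or 3 or vehicle replicates 1 or 3 with adjusted p up to 0.191). Of the genes linked to HSC aging 2 rose and 3 fell of 44 (median −0.74, or −0.43 with 3 members that were at 0 counts in a whole group set to their bound). Vwf, the von Willebrand factor gene, fell from 111, 209 and 254 to 56.6, 46.1 and 72.0 CPM (lost without fresh replicates 2 or 3 or vehicle replicates 1, 2 or 3 with adjusted p up to 0.16), and the scramblase gene Plscr2 rose from 38.6, 49.6 and 82.7 to 116, 122 and 202 CPM (lost without fresh replicates 1 or 2 or vehicle replicate 3 with adjusted p up to 0.126). None of 18 clock genes passed in edgeR (6 at an unadjusted p under 0.05, 3 in DESeq2, 3 in limma), none of 39 epigenetic regulators (8, 2 and 4) and none of 25 nuclear-retained and snoRNA host RNAs (1, 0 and 0). Malat1, a nuclear RNA, was at 4328, 3365 and 3146 CPM fresh and 1875, 2326 and 969 CPM after vehicle, all lower (adjusted p = 0.388). Of 22 imprinted genes Gnas, which overlaps Gnasas1, rose from 1017, 1050.3 and 999.9 to 1511, 1798 and 1396 CPM (lost without fresh replicates 1, 2 or 3 or vehicle replicates 1 or 2 with adjusted p up to 0.112).

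**Figure D4:**
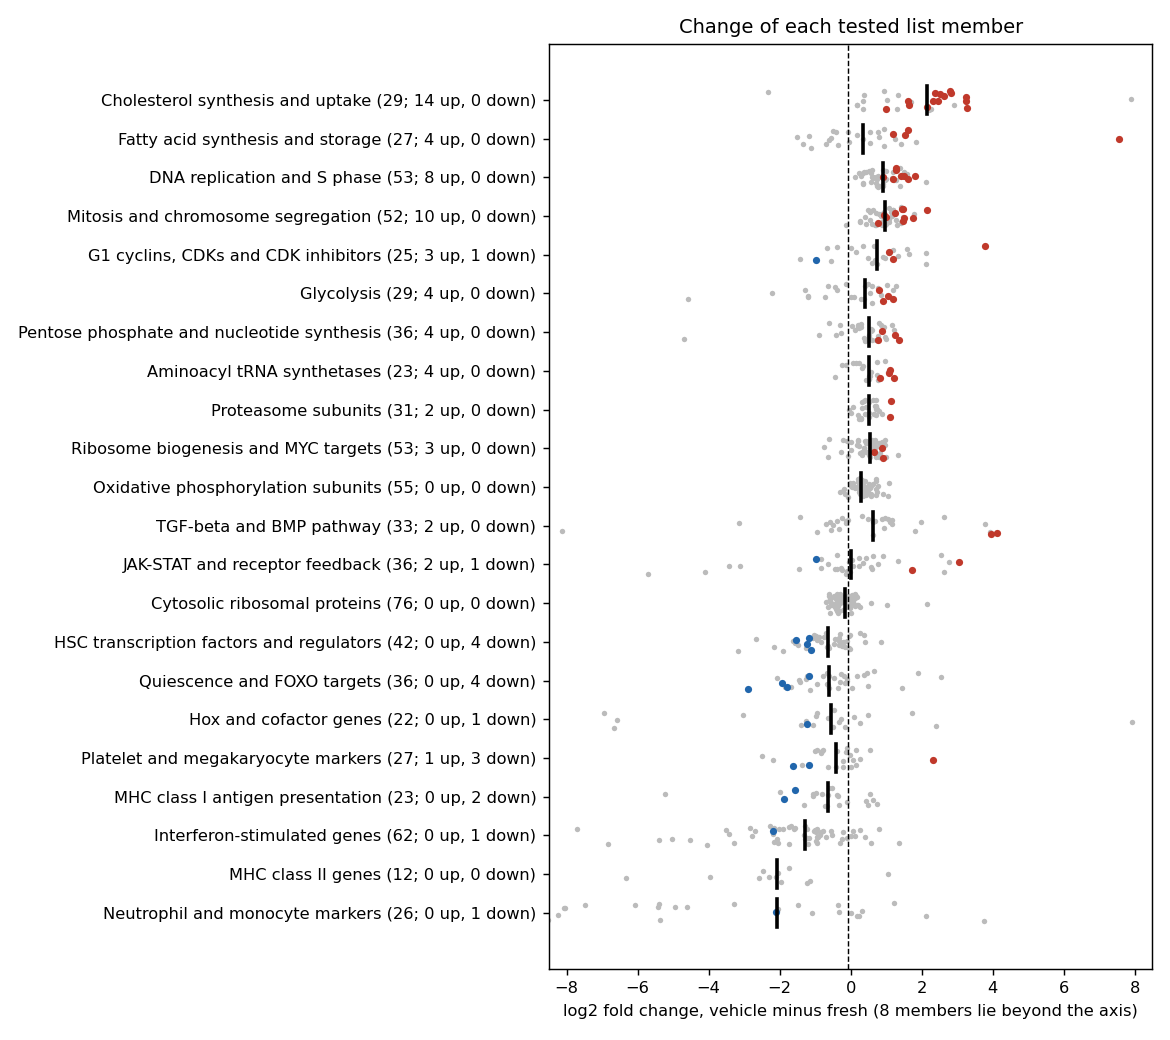
Log2 fold change of every tested member of 22 lists; red points rose, blue points fell, grey points did not pass, black bars are list medians and the dashed line is the median of all genes tested, −0.07. Cholesterol genes stand apart on the right, replication, mitosis, proteasome and respiratory chain genes sit as narrow clouds above 0, and interferon, MHC class II and neutrophil genes spread widely below 0; 8 members lie beyond the axis.

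Antigen presentation and interferon genes mostly lay lower after culture, although few single genes passed. Of 23 MHC class I genes 2 fell, with a median of −0.65. H2-T23, a non-classical class I gene that overlaps A930015D03Rik, went from 741, 869 and 1138 CPM to 166, 233 and 295 CPM (log2 −1.88, SE 0.28, adjusted p = 0.00227). H2-Q6 went from 235, 385 and 384 to 106, 106 and 102 CPM (log2 −1.58, adjusted p = 0.00729). Both belong to a family of near-identical genes, so that reads may have been divided or lost between copies, and H2-Q7 had 0 counts in all 6 libraries. The classical genes H2-K1 (2049, 3097 and 3241 and 1045, 1523 and 1868 CPM) and B2m (2084, 2024 and 2459.9 and 1313, 1187 and 1395 CPM) were separate with adjusted p of 0.0785 and 0.0956. None of 12 MHC class II genes passed in edgeR (2 at an unadjusted p under 0.05, 1 in DESeq2, 1 in limma), while 11 lay below 0 and the median was −2.08. Their summed level was 573 ± 115 CPM fresh and 155 ± 61.7 CPM after vehicle. Cd74, the invariant chain gene, was at 62.4, 80.6 and 76.6 and 37.9, 22.9 and 32.2 CPM.

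Interferon-stimulated genes had a median of −1.29 over 62 tested, with 54 below 0. Of these, 36 lay lower in every vehicle than in every fresh library, against 2088 of all 14124 genes tested, and 1 passed. With 6 members that were at 0 counts in a whole group set to their bound the median was −1.26. That gene was Tgtp2 (chromosome 11, 49057196 to 49064212), an interferon-induced GTPase with the near-identical copy Tgtp1, at 123, 193 and 216 CPM fresh and 32.8, 28.8 and 46.6 CPM after vehicle (log2 −2.19, SE 0.30, adjusted p = 0.00151). Zero counts moved with this list: 20.4% of its values were 0 in vehicle libraries against 3.23% in fresh ones, and their part in the median was not tested. Members with the most counts did not separate downward: Ly6e was at 785, 844 and 1000.1 CPM fresh and 1410.4, 1176 and 1696 CPM after vehicle, Ifitm1 at 734, 921 and 673 and 1062, 866 and 1265, Ifitm3, chosen after its values were seen, at 576, 655 and 666 and 518, 474 and 852, and Ifitm2 at 639, 537 and 544 and 689, 718 and 730.4. Ly6e and Ifitm2 lay higher in each vehicle library, and none of the 4 passed (adjusted p from 0.0693 to 0.994).

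The Tgtp2 promoter is shown as the changed member with the interferon response motif, which is a pair of TTTC repeats spaced by 2 bases or its complement. It lies at chr11:49064213-49064462 (GRCm38.p6, minus strand, from RefSeq, 5′ to 3′), and capitals mark the match, 70 bases before the start.
Tgtp2: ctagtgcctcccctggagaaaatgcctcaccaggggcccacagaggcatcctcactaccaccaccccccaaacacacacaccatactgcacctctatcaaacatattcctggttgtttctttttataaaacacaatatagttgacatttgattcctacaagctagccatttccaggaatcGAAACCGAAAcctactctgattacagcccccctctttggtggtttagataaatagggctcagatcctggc
The motif was found in 21 of 44 promoters of the interferon list (47.7%), against 3.14% of tested genes and 3.46% of all promoters.

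Marker genes of blood lineages mostly lay lower after culture. Among 27 platelet and megakaryocyte genes 3 fell (Thbs1, Nfe2 and Vwf) and 1 rose (Itgb3), with a median of −0.42 and summed levels of 5012 ± 579 and 3335 ± 419 CPM. The erythroid sum was 3972 ± 364 CPM fresh and 1497 ± 80.2 CPM after vehicle, and Car2 and Apoe made up most of that difference. Of 23 tested erythroid genes 16 lay below 0 and 7 above, with a median of −0.45. Car2, a carbonic anhydrase gene of that list, fell from 2539.7, 2750.0 and 1942 to 939, 992 and 827 CPM (log2 −1.29, SE 0.21, adjusted p = 0.00595). Neutrophil and monocyte genes had a median of −2.07 over 26 tested (−1.76 with 8 members at 0 counts in a whole group set to their bound) and summed levels of 1204 ± 65.0 and 628 ± 115 CPM. Their values were 0 in 59% of vehicle and 26.9% of fresh cases. Lyz2, the lysozyme gene, was the member that passed, at 503, 430.2 and 428 CPM fresh and 80.8, 107 and 108 CPM after vehicle (log2 −2.11, SE 0.22, adjusted p = 0.000108). The proteinase gene Prtn3 was at 249.7, 265 and 267 and 56.0, 16.5 and 103 CPM (adjusted p = 0.0637). Lyz2 and Prtn3 together made up most of the difference between the summed neutrophil levels.

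Among 20 mast cell and basophil genes Slc18a2, a vesicular amine transporter, fell from 315, 259 and 233 to 40.5, 5.36 and 22.6 CPM (log2 −3.46, lost without fresh replicates 1 or 2 or vehicle replicate 3 with adjusted p up to 0.0735), and Lat2, an adaptor of immune receptors, rose from 21.1, 5.80 and 9.45 to 95.5, 152 and 103 CPM (log2 3.36, lost whichever of the 6 libraries was left out with adjusted p up to 0.188). Kit was the remaining change of that list, and 10 of its 30 genes were at 0 counts in all 6 libraries. Of 17 lymphoid priming genes Lsp1 fell, from 239, 245 and 199 to 58.2, 35.7 and 55.5 CPM (log2 −2.09, lost whichever of the 6 libraries was left out with adjusted p up to 0.0963). Summed T and NK cell genes were at 229.7 ± 22.4 and 150.0 ± 22.1 CPM and summed B and plasma cell genes at 139 ± 31.5 and 102 ± 25.9 CPM, with none of 7 and none of 6 tested genes called by edgeR (1 and 0 at an unadjusted p under 0.05, 1 and 0 in DESeq2, 1 and 0 in limma). Summed endothelial and stromal genes were at 502 ± 47.6 and 367 ± 79.4 CPM, and none of 14 passed in edgeR (1 at an unadjusted p under 0.05, 1 in DESeq2, 0 in limma). Macrophage and dendritic cell genes summed to 980.4 ± 68.1 CPM fresh and 1584 ± 304 CPM after vehicle, the reverse direction. Cd63 was the 1 of 17 that rose, and its mean gain alone was larger than that of the whole sum. Of the 17 genes 6 lay above 0 and 10 below, with a median of −0.16. Apart from the macrophage and dendritic cell sum, the means of these sums were lower after culture, as most stem cell factor and interferon genes above were. Between groups the B cell and endothelial sums overlapped. The part of these sums in the stem cell and interferon results was not tested.

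The same culture step was available for SelpKO cells, which lack Selp, with 2 fresh and 3 vehicle libraries, which share no library with the comparison above. Of the 174 genes that rose in WT, 172 had a log2 fold change above 0 in KO (the exceptions, singled out after their values were seen, were Recql4 and Shb), and all 57 that fell were below 0 there. In KO 250 genes passed, 103 of them higher and 40 of them lower in both genotypes. The difference of the culture response between WT and KO passed for 0 of 14124 genes (0%) in edgeR, for 69 genes in DESeq2 and for 0 in limma. In edgeR 353 of the 14124 had an unadjusted p under 0.05, a share that is itself below 0.05. Most of the 69 had extreme fitted log2 differences, down to −47.6 for Abcc3, which are no measure of size. Tgfbi changed by 4.13 in WT and 3.92 in KO on the log2 scale, and Txnip by −2.90 and −3.10. The median of the cholesterol list was 2.16 in both genotypes. Medians were 0.92 in WT and 1.61 in KO for replication, 0.98 and 1.62 for mitosis and −0.45 and −1.51 for erythroid genes. How far the medians differ between genotypes was not tested. Apart from Slc4a8, which was at 0 counts in fresh WT cells, the genes farthest from equal change were Nek8, at −5.39 and −0.80, and Recql4, at 4.22 and −0.17. The unadjusted p of the difference in edgeR was 0.0139 for Nek8 and 0.00348 for Recql4. Both genes were singled out by the size of that difference, and neither passed after adjustment. Shb was at 4.88, 4.84 and 5.44 CPM in fresh and 33.9, 58.0 and 21.5 CPM in vehicle WT cells (log2 2.99), a call lost without fresh replicates 1, 2 or 3 or vehicle replicates 1 or 2 (highest adjusted p 0.12), against a log2 fold change of −0.38 in KO. Its difference passed in DESeq2 (log2 3.40, SE 0.71, adjusted p = 0.000802), the only gene called in WT for which it did. No gene's difference passed in edgeR after adjustment, which does not show that the genotypes responded alike.

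**Figure D5:**
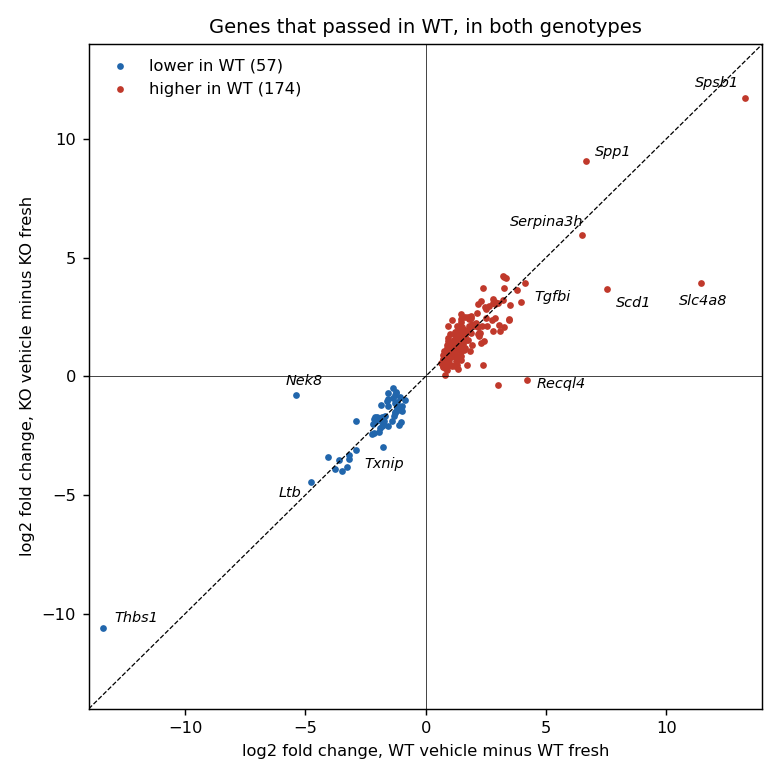
Log2 fold change with vehicle culture in WT (x axis) and KO (y axis) cells for the 231 genes that passed in WT; red points rose and blue points fell in WT, and the dashed line marks equal change. All points but Recql4 and Shb lie in the lower left or upper right corner of the plot, and fitted changes beyond 10 belong to genes with 0 counts in a whole group and are no measure of size.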

How the data were processed

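RNA from sorted HSCs was extracted with the RNeasy Plus Micro kit and amplified with the SMART Ultra-Low Input kit, per the labels' protocols. The deposited values are raw counts of reads per gene that the authors made with STAR 2.7.5c and featureCounts on the mouse build mm10, with MultiQC 1.10 and DESeq2 also named, per the submitters' processing notes. Neither the gene annotation nor the settings for strand and for reads that match several places were given in the sources used here.

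Genes were kept by filterByExpr (14124 of 25239), libraries were scaled by TMM, and 1 mean per group was fitted over all 16 libraries with edgeR 4.0.16 (R 4.3.3; robust quasi-likelihood F test, common biological coefficient of variation 0.977). A gene passed at a Benjamini-Hochberg adjusted p below 0.05, adjusted across every gene of the fit. SE is the log2 fold change divided by the square root of F. CPM divides by the raw library total. The 6 totals of 12590539 to 16687200 counts put the floor of 3 counts at 0.180 to 0.238 CPM, which covers counting error only. Alternatives used limma 3.58.1, DESeq2 1.42.0 and changes of scaling, filter and libraries.

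Named genes were the HSC and progenitor markers, the 20 largest changes in each direction among genes with a regular symbol that passed and averaged 5 CPM or more in either group, plus, per list, up to 5 genes in each direction that passed and the 3 with the most counts that did not; others are marked where they appear. The members and lists were chosen with earlier results of these data known. On simulated counts for this comparison (14124 genes), the test recovered 2, 34, 50 and 54% of 50 genes each changed by 2, 4, 8 and 16-fold, with 2 false calls among 72. The main fit did not pair libraries by replicate number, and the labels state no pairing. Promoters and gene positions come from RefSeq (GRCm38.p6), with 25146 of 25239 symbols matched, 105 through a synonym. In overlaps between genes, which touch 24 of 110 named changed genes, reads cannot be divided without the strand setting.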

Additional observations from a re-analysis of the deposited data

How the results depend on the processing

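WT fresh and WT vehicle had 3 libraries each, and KO fresh and WT PSGL-1 had 2 each. Of the 231 calls, 37 were lost in all 6 fits without 1 of the WT fresh or WT vehicle libraries. Against 231 genes (174 higher, 57 lower), DESeq2 called 797 (426 and 371) and limma 706 (412 and 294), a required change of 2-fold left 29 (23 and 6), and 440 (283 and 157) passed without the sparse treated library. In the 6 libraries alone 105 genes were lower of 235 in all, 153 of them shared. Without 1 library 85 to 153 passed, 63 to 119 higher and 22 to 50 lower. RLE scaling (213), no filter (218) and a stricter filter (252) stayed within 1.5 times. All 231 genes were among those called by DESeq2, and 225 among those of limma. The difference between genotypes passed for 69 genes in DESeq2, most of them with the extreme fitted values described above. It passed for 0 to 31 without 1 library, with 31 when KO fresh replicate 2 was left out. That fit left KO fresh replicate 1 alone in its group, so the group had no spread of its own. KO fresh replicate 1 had 0 counts in 2187 tested genes, against 1101 in KO fresh replicate 2. The count from that fit therefore cannot show whether the genotypes responded differently. Its cause was not tested.

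The log2 fold change of Selp, which did not pass, was 0.27, against −0.19 without WT fresh replicate 1, −0.59 without WT vehicle replicate 3 and 0.97 without WT fresh replicate 3. With the replicate number as a block 197 genes passed (149 higher, 48 lower). Same-numbered fresh and vehicle libraries did not deviate together (correlations 0.00424, −0.00795 and 0.0293). The labels state no pairing. For KO fresh and WT PSGL-1 libraries, replicate numbers do not line up with the numbers in the library names, so this block cannot settle whether libraries were paired. Of 52 list medians, 10 changed sign in at least 1 setting: endothelial, epigenetic, immediate early, adhesion, JAK-STAT, mast cell, NF-kB, NRF2, secreted factor, and Wnt and Notch genes. The hypoxia and macrophage medians came to 0.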
